A study of Homo sapiens with 18 samples.

Results

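The genes described here are 10 genes used to read epithelial-mesenchymal transition (EMT): the transcription factors SNAI1, SNAI2, TWIST1, TWIST2, ZEB1, ZEB2 and PRRX1, the mesenchymal products VIM and FN1, and the epithelial adhesion gene EPCAM. They were chosen by name, with earlier results of these data known, and all 10 were found among the 50119 genes listed. The libraries come from Saos-2, an established human osteosarcoma (OS) cell line (spelled Soas-2 in the labels, genotype WT). There were 18 libraries, 3 in each of 6 groups. D-2 cells grew as 2D cells for 14 days, and D-3 cells grew inside Matrigel for 14 days. DP-3 tissue was printed from cells in a methacrylated gelatin and alginate bioink and was taken on day 14, with a separate group taken on day 1 (DP-3 day 1). FIT was fresh tumor tissue from cells implanted under the skin, in Matrigel, of female BALB/c nude mice aged 4 weeks and removed 2 weeks later. IT was tumor tissue of the same kind cut into pieces and kept on Matrigel for 14 days. Per the study's methods each tumor was shared out between this culture and fresh analysis, so IT against FIT may compare parts of the same tumors, and nothing says that a replicate number marks the same mouse. Nude mice lack T cells but keep other host cells, so FIT and IT can hold mouse RNA, and in tissue fewer cells of a type and less RNA per cell cannot be told apart.

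In an EMT, cells lose the junctions of an epithelium and take on a motile, matrix-producing state. SNAI1 and SNAI2 (zinc finger repressors), TWIST1 and TWIST2 (basic helix-loop-helix factors), ZEB1 and ZEB2 (zinc finger homeobox repressors) and PRRX1 (a homeobox factor) act in this switch, and several of them repress CDH1 through E-box sites. Osteosarcoma is a tumor of mesenchymal origin, so these genes are read here as levels of a mesenchymal program and not as a transition from an epithelium.

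The total estimated count per library lay between 50327345 and 79082786, except in FIT replicate 3, where it was 23721666. The IT replicates had the lowest agreement within a group on log2(FPKM + 0.1) over 12394 genes, with Pearson coefficients from 0.898 to 0.948, and IT replicate 3 was the one apart. The labelled line was checked against 12 genes of osteoblast identity. ALPL, IBSP, DMP1 and PTH1R stayed below 0.15 FPKM in every library and BGLAP below 1 FPKM, and COL1A1 reached only 1.79 to 21.0 FPKM, which goes against an osteoblast identity.

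VIM and FN1 were expressed far above the factors, and EPCAM was close to the limit of detection. FPKM, which scales fragments by gene length and library total, averaged 908 for VIM (the main intermediate filament of mesenchymal cells) and 855 for FN1 (fibronectin, a matrix protein) over the 18 libraries, ranks 22 and 24 of the 50119 genes. PRRX1 averaged 15.2, SNAI1 10.5, SNAI2 8.92, TWIST2 7.58, TWIST1 6.66, ZEB1 4.96 and ZEB2 0.772 FPKM. EPCAM lay between 0.0107 and 0.253 FPKM, or 2 to 50 estimated counts, and 13 of 18 libraries exceeded 12 counts, taken as the limit of detection (3 read pairs if 4 counts stand for 1 pair, which was assumed). CDH1 (E-cadherin), the classical target of these repressors, lay between 0.00347 and 0.158 FPKM.

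**Figure D1:**
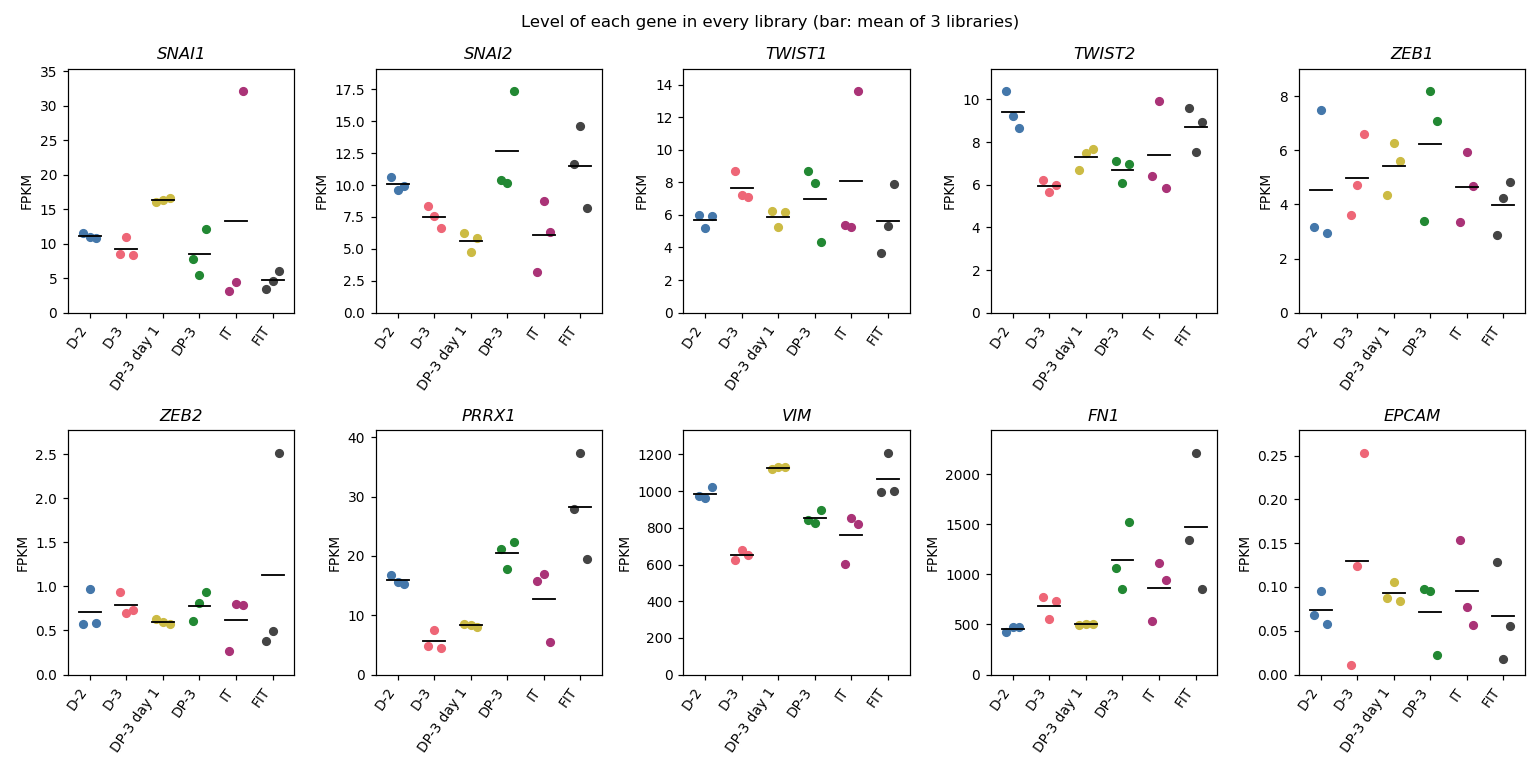
FPKM (vertical axis, linear, from 0) of each gene in each of the 18 libraries, by group along the horizontal axis, with points for libraries and a bar for the mean of 3. PRRX1 is lowest in D-3 and highest in FIT, VIM is lowest in D-3, and the SNAI1 point at 32.2 and the TWIST1 point at 13.6 are both IT replicate 3.

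Each comparison was fitted on the estimated counts of its 6 libraries with edgeR's quasi-likelihood test. A gene was called when its Benjamini-Hochberg adjusted p over all genes tested was below 0.05 and the change was at least 2-fold. Nothing says that the replicates came from separate cultures or mice, so the p-values measure the spread between these libraries. The smallest p that an exact permutation test can give for groups of 3 is 0.1, so for single genes the overlap of the groups is given as well. A log2 fold change is positive when the first-named group is higher. The comparisons with FIT share its 3 libraries.

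PRRX1 was called in 3 of the 6 comparisons. Its FPKM in D-3 was 4.89, 7.59 and 4.47, and in FIT it was 28.0, 37.4 and 19.5. All 3 D-3 libraries lay below all 3 FIT libraries. PRRX1 was 5.26-fold lower in D-3 than in FIT (log2 fold change -2.40 ± 0.32 SE, adjusted p = 0.00596 by edgeR's quasi-likelihood test). In D-2 it was 16.8, 15.6 and 15.2 FPKM, all above the D-3 values, and D-3 was 3.34-fold lower than D-2 (-1.74 ± 0.21 SE, edgeR adjusted p = 0.00236). Between D-2 and FIT the libraries did not overlap either, but the difference (-0.69 ± 0.24 SE, edgeR adjusted p = 0.0635) did not pass. In DP-3 the FPKM was 21.3, 17.9 and 22.4, against 8.51, 8.44 and 8.04 on day 1. PRRX1 rose 2.97-fold between the days (1.57 ± 0.12 SE, edgeR adjusted p = 0.00144). IT was split, at 15.8, 17.0 and 5.46 FPKM, and replicate 3 lay within the D-3 range. By group mean the order was FIT, DP-3, D-2, IT, DP-3 day 1 and D-3. The ranges of FIT and DP-3, of D-2 and IT, and of IT and DP-3 day 1 overlapped, while those of DP-3 and D-2 and of DP-3 day 1 and D-3 did not.

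The 250 bases before the RefSeq start of PRRX1 (GRCh38.p14, chr1:170663881-170664130, plus strand) are shown because PRRX1 was called in 3 comparisons, beside those of FN1 (chr2:215436069-215436318, minus strand) and VIM (chr10:17227991-17228240, plus strand), the matrix and filament genes. Capitals mark matches, on either strand, to CCAAT, to GGGCGG or to TGACGTCA, the cAMP response element, and some GGGCGG matches overlap each other.
PRRX1: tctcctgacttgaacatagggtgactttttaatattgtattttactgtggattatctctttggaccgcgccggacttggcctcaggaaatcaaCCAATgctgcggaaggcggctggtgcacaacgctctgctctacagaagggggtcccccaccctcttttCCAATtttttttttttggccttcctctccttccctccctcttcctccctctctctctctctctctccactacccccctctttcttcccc
FN1: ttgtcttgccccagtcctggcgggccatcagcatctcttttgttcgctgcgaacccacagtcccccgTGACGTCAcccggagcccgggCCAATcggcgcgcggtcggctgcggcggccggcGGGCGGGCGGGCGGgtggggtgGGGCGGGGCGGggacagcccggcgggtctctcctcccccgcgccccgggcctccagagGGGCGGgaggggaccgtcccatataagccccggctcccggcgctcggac
VIM: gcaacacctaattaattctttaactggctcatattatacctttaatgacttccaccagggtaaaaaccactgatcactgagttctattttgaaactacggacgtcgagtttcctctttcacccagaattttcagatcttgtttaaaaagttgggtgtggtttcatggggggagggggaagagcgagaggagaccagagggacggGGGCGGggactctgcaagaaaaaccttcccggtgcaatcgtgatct
PRRX1 held 2 matches to CCAAT, which 32.0% of the 35116 RefSeq promoter windows of this length hold. FN1 held 1 match to TGACGTCA, found in 1.65% of windows, with 1 to CCAAT and 6 to GGGCGG, and VIM held 1 to GGGCGG, which 42.6% of windows hold. The E-box CACCTG, searched on both strands and present in 17.5% of windows, had 0 matches in all 3. In the deposited annotation PRRX1 spans chromosome 1 from 170662728 to 170739421 on the plus strand, FN1 chromosome 2 from 215360440 to 215436073 on the minus strand, and VIM chromosome 10 from 17228241 to 17237593 on the plus strand. The PRRX1 window thus lies inside the gene as annotated there. That of FN1 overlaps the start of its gene by a few bases, and that of VIM ends just before the start.

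FN1 was low in D-2 and on day 1 of printing. Its FPKM was 422, 476 and 470 in D-2, and 1347, 2215 and 851 in FIT. Every D-2 library lay below every FIT library, and the FIT libraries spread 2.60-fold among themselves. FN1 was 2.93-fold lower in D-2 than in FIT (-1.55 ± 0.34 SE, edgeR adjusted p = 0.0149), a call lost when any one D-2 library was left out (edgeR adjusted p from 0.0506 to 0.0583). In D-3 FN1 was 774, 550 and 738 FPKM, below FIT without overlap, but it did not pass (-1.18 ± 0.37 SE, edgeR adjusted p = 0.0885). Within the printed tissue FN1 was 497, 506 and 507 FPKM on day 1 and 1067, 853 and 1518 on day 14, and it rose 2.77-fold (1.47 ± 0.23 SE, edgeR adjusted p = 0.00684). DP-3 and FIT overlapped (-0.24 ± 0.41 SE, edgeR adjusted p = 0.751).

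VIM had its lowest group mean in D-3. It was 626, 678 and 654 FPKM in D-3 and 972, 961 and 1023 in D-2. These groups did not overlap, and VIM was lower in D-3 by less than 2-fold (-0.85 ± 0.10 SE, edgeR adjusted p = 0.00236). FIT, at 996, 1210 and 999 FPKM, also lay above D-3 (-0.77 ± 0.18 SE, edgeR adjusted p = 0.0397). In DP-3 day 1, the group with the highest mean, VIM was 1122, 1130 and 1130 FPKM. DP-3 lay below day 1 without overlap, at 844, 827 and 895 FPKM, but the difference did not pass the adjusted p. IT was 603, 853 and 822 FPKM, and its replicate 1 was the single library below D-3. VIM overlaps the antisense gene VIM-AS1, which lay between 0.910 and 16.2 FPKM. The libraries were stranded, but whether the counting used the strand is not given in the sources used here.

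The ratio of FN1 to VIM within a library, in FPKM, fell into separate ranges. It was 0.434 to 0.495 in D-2 and 0.443 to 0.448 in DP-3 day 1. In the 12 libraries of the other groups it was 0.812 or more, up to 1.83 in FIT. No test was made of this ratio, which was computed after the values were seen.

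**Figure D2:**
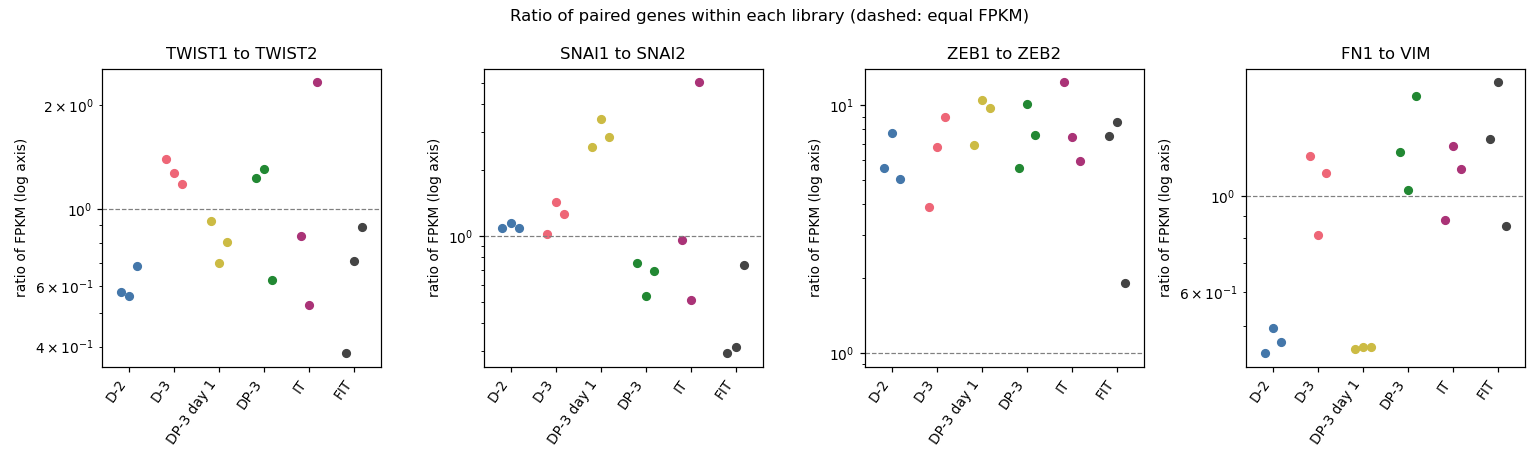
Ratio of FPKM within each library (vertical axis, log scale) for 4 pairs of genes, by group, with 1 point per library and a dashed line at equal FPKM. The FN1 to VIM points of D-2 and DP-3 day 1 all lie below 0.5, and all other points of that pair lie above 0.8.

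SNAI1 was called in D-2 against FIT and SNAI2 in DP-3 against DP-3 day 1. SNAI1 was 11.56, 11.03 and 10.85 FPKM in D-2 and 3.42, 4.56 and 6.04 in FIT, with no overlap, and it was 2.66-fold higher in D-2 (1.41 ± 0.22 SE, edgeR adjusted p = 0.00526). SNAI2 was 10.6, 9.64 and 9.96 FPKM in D-2 and 11.7, 14.7 and 8.17 in FIT, and the groups overlapped (-0.05 ± 0.22 SE, edgeR adjusted p = 0.889). In the printed tissue SNAI2 was 6.26, 4.78 and 5.84 FPKM on day 1 and 10.4, 10.2 and 17.4 on day 14, and it rose 2.73-fold (1.45 ± 0.26 SE, edgeR adjusted p = 0.00946). SNAI1 was 16.0, 16.3 and 16.6 FPKM on day 1, above all 3 values on day 14 (7.81, 5.43 and 12.1), but the difference did not pass (-0.67 ± 0.29 SE, edgeR adjusted p = 0.151). The SNAI1 to SNAI2 ratio of FPKM was accordingly 2.55 to 3.42 on day 1 and 0.533 to 0.753 on day 14. Between D-3 and D-2 both were lower in D-3 by less than 2-fold. SNAI1 had an edgeR adjusted p of 0.0329 with groups that overlapped, and SNAI2 one of 0.00838 with groups that did not. SNAI2 lies on chromosome 8 and SNAI1 on chromosome 20. SNAI3, the third family member, stayed at or below 0.325 FPKM.

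IT replicate 3 set the mean of SNAI1 in IT. SNAI1 was 3.09 and 4.49 FPKM in the other IT libraries and 32.2 in that one. SNAI1 in IT against FIT gave a log2 fold change of 1.52 ± 0.84 SE (edgeR adjusted p = 0.508), and -0.30 without IT replicate 3. TWIST1 in IT was 5.35, 5.25 and 13.6 FPKM, and its log2 fold change against FIT turned from 0.52 to -0.09 without that library. The cause was not tested.

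TWIST1 and TWIST2 were called in 0 of the 6 comparisons. TWIST2 was 6.22, 5.68 and 5.99 FPKM in D-3 and 10.4, 9.24 and 8.66 in D-2, and was lower in D-3 by less than 2-fold with no overlap (-0.91 ± 0.14 SE, edgeR adjusted p = 0.00410). TWIST1 was 8.70, 7.23 and 7.10 FPKM in D-3, above all 3 D-2 values (6.002, 5.19 and 5.92), but did not pass (0.18 ± 0.15 SE, edgeR adjusted p = 0.398). TWIST2 in DP-3 against day 1 was 0.15 on the count scale and -0.12 on log2(FPKM + 0.1), a sign that depends on the scaling. The median of all genes in that comparison was -0.06 in the count fit and -0.29 on log2(FPKM + 0.1). The scaling bears on the other genes too. From day 1 to day 14 mean FPKM went from 8.33 to 20.5 for PRRX1, 503 to 1146 for FN1 and 5.63 to 12.7 for SNAI2. These rises are smaller than the fitted folds. Between D-2 and D-3 mean FPKM of PRRX1 went from 15.9 to 5.65, also a smaller change than the fitted one.

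ZEB1 and ZEB2 were called in 0 of the 6 comparisons. ZEB1 was 3.17, 7.49 and 2.95 FPKM in D-2, a 2.54-fold spread, whereas only 7.01% of the 12332 genes with a mean of at least 1 FPKM spread at least 2-fold among these libraries. DP-3 had a similar ZEB1 spread (3.39, 8.20 and 7.08 FPKM). ZEB1 overlaps ZEB1-AS1 on the opposite strand, which was lower in D-2 than in FIT (-1.19 ± 0.32 SE, edgeR adjusted p = 0.0294) and higher in D-3 than in D-2 (1.53 ± 0.31 SE, edgeR adjusted p = 0.0105). ZEB2 was higher in DP-3 than on day 1 by less than 2-fold (0.65 ± 0.19 SE, edgeR adjusted p = 0.0447), with groups that overlapped.

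ZEB2 in FIT rested on 1 library. It was 0.384 and 0.496 FPKM in FIT replicates 1 and 2, and 2.52 in replicate 3, the shallow one. That library also held 3.94 FPKM of COL3A1 (a fibroblast collagen), 4.26 of DPT (a dermal matrix gene) and 3.61 of MYH2 (a skeletal muscle myosin), against at most 0.0516, 0.729 and 0.0692 FPKM in the other FIT libraries. D-2, which holds no host tissue, also had COL3A1 at 0.773 to 1.04 FPKM and DPT at 1.04 to 1.74, with MYH2 at 0. Without FIT replicate 3 the ZEB2 change of D-2 against FIT went from -0.50 to 0.80, and that of D-3 against FIT from -0.55 to 0.74. Over the whole lists, the summed FPKM of 12 fibroblast markers was 25.6 to 32.5 in FIT and 10.1 to 19.8 elsewhere. PDGFRA carried most of it, at 12.6 to 28.3 FPKM in FIT and 4.78 to 13.8 in the cultures without host tissue. DCN, LUM, PI16, MFAP5, CD34, SCARA5, OGN and FMOD were no higher in FIT than in the highest of those cultures. CLEC3B was 1.64 to 4.11 FPKM in FIT and at most 0.297 in those cultures. Of the 10 fibroblast markers tested in D-2 against FIT 5 were higher and 5 lower in D-2, with a median of -0.06. The sum of 10 skeletal muscle markers was 1.07 to 5.79 in FIT and at most 0.730 elsewhere. PTPRC, the pan-leukocyte marker, stayed below 0.07 FPKM in every library. The 12 endothelial markers summed to 37.3 to 52.4 FPKM in FIT and 28.2 to 55.4 elsewhere, the 14 macrophage markers to 20.4 to 56.6 and 44.5 to 118, the 9 keratinocyte markers found to 27.7 to 57.6 and 17.3 to 31.1, and the 8 adipocyte markers to 0.523 to 0.778 and 0.2504 to 8.78. TIE1 carried the endothelial sum and CD68 the macrophage sum, and the cultures held both genes too, at 22.4 to 44.7 FPKM of TIE1 and 41.1 to 115 of CD68. CDH5 was 0.320 to 1.34 FPKM in FIT and IT and at most 0.149 in the cultures, and PECAM1 2.93 to 5.01 and at most 1.80. For other endothelial markers the highest value in FIT and IT lay below the highest in the cultures. This held for KDR (0.00864 against 0.0502 FPKM), VWF (0.0582 against 0.169), EMCN (0.209 against 0.477), EGFL7 (3.53 against 3.96) and TIE1 (42.1 against 44.7). The ranges of TEK, ESAM, ROBO4, FLT1 and CLDN5 in FIT and IT overlapped those in the cultures. In D-2 against FIT 7 of the 12 endothelial and 5 of the 9 keratinocyte markers were tested. Of these, 4 and 3 were called lower in D-2, beside 10.8% of all genes. Some tested markers passed the filter on low values only through FIT, such as TEK, at 0.0648 to 0.0869 FPKM in D-2 and 0.245 to 0.506 in FIT. C1QA, C1QB, TYROBP and AIF1 were at 0 in all FIT libraries. The part of host RNA in the ZEB2 value was not tested.

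**Figure D3:**
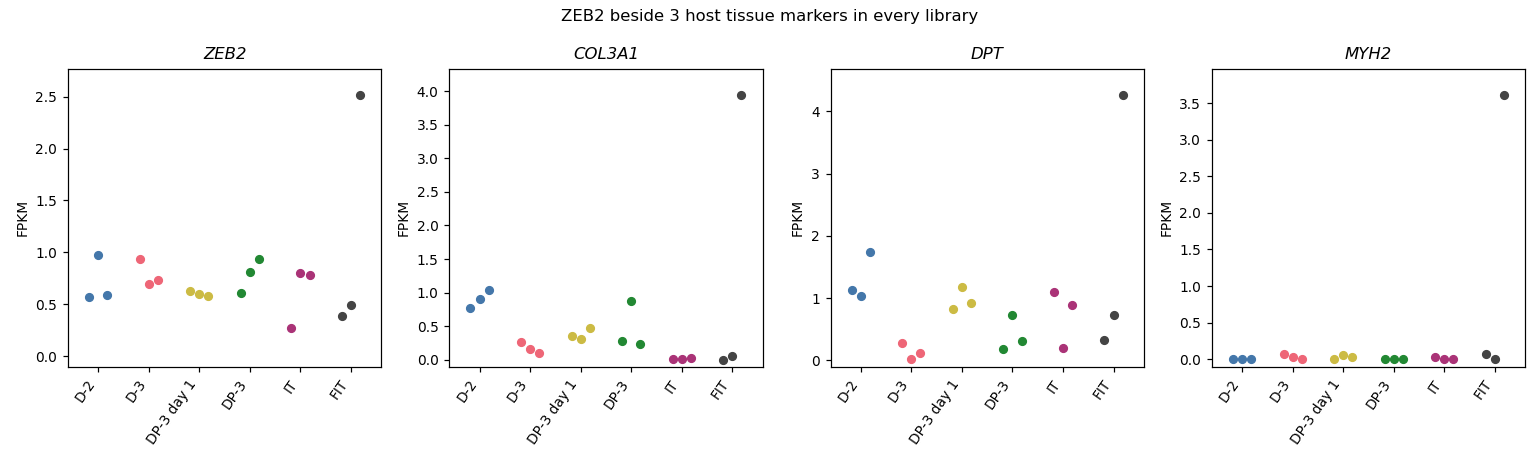
FPKM (vertical axis) of ZEB2 and of the tissue markers COL3A1, DPT and MYH2 in each of the 18 libraries, by group, with 1 point per library. The highest point of each panel is FIT replicate 3.

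Counted over the comparisons, the 10 genes stood beside all genes tested as follows. In D-2 against FIT 2 of 9 tested were called (SNAI1 and FN1), where 14.6% of all genes were. The same 2 had an adjusted p below 0.05 at any fold (30.9% of all genes), and 3 of 9 had groups that did not overlap (49.9% of all genes). In D-3 against FIT 1 of 10 was called (PRRX1), against 6.45% of all genes, 2 passed the adjusted p at any fold, against 8.29%, and 5 did not overlap, against 32.4%. In DP-3 against FIT edgeR called 0 of 9, against 4.82% of all genes. There 0 passed the adjusted p at any fold, against 8.4%, 2 did not overlap, against 34.1%, and SNAI1, which DESeq2 called, was the 1 gene with an unadjusted p below 0.05, against 27.6%. In IT against FIT edgeR and DESeq2 called 0 of 9, and edgeR called 0% of all genes, also at any fold, whereas DESeq2 called 661 genes in all. PRRX1 and SNAI2 had an unadjusted p below 0.05 there, against 12.7% of all genes, and 2 did not overlap, against 20.6%. In DP-3 against DP-3 day 1 there were 3 called of 9 (SNAI2, PRRX1 and FN1, all higher on day 14), against 7.56% of all genes, 4 past the adjusted p at any fold, against 22.1%, and 5 without overlap, against 45.2%. In D-3 against D-2 there was 1 called of 9 (PRRX1), against 18.5%, with 5 past the adjusted p at any fold, against 35.5%, and 6 without overlap, against 53.2%. EPCAM passed the filter on low values only in D-3 against FIT and did not pass the test there (0.86 ± 1.09 SE, edgeR adjusted p = 0.684).

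**Figure D4:**
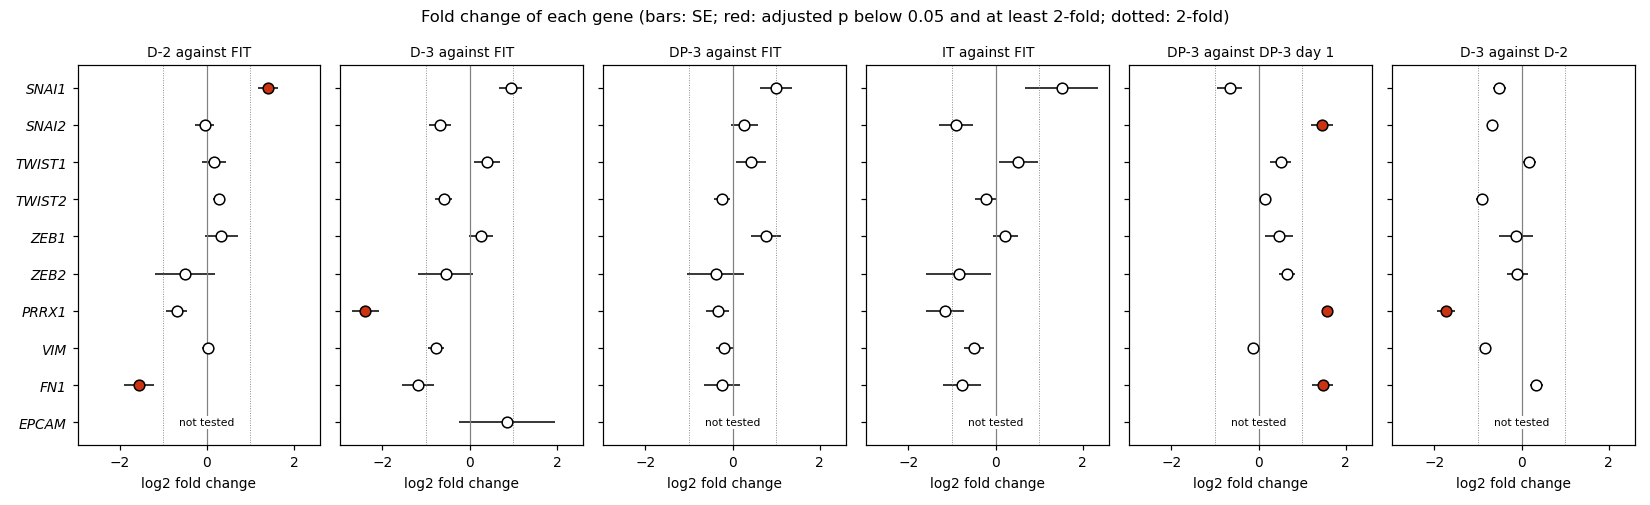
Log2 fold change (horizontal axis) with its SE (bars) of each gene in the 6 comparisons, with called genes in red and dotted lines at 2-fold. PRRX1 is red and below 0 in both comparisons of D-3, and SNAI2, PRRX1 and FN1 are red and above 0 in DP-3 against DP-3 day 1.

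Lists of other genes of the pathway, also chosen with earlier results of these data known, were set beside the 10. In D-3 against D-2, 10 of the 23 tested epithelial genes were called higher and 1 lower (median log2 fold change 1.41, against 0.11 for all genes), and of 42 tested mesenchymal genes 1 was called higher and 12 lower (median -0.63). Of all genes, 14.6% were called higher and 3.95% lower. The filter asked for 0.1 FPKM in at least 3 of the 6 libraries. Epithelial genes near 0 in D-2, such as ESRP1 and CLDN1, passed it only through D-3. The epithelial count and median thus lean towards D-3, and all genes are not matched to this list in level. D-3 libraries held 21384 to 22322 genes at 0.1 FPKM or more, and D-2 libraries 17716 to 18109. ESRP1, an epithelial splicing regulator, was 3.05, 2.83 and 3.54 FPKM in D-3 and at or below 0.00703 in D-2 (edgeR adjusted p = 0.000776). CLDN1, a tight junction claudin, was 4.44, 0.717 and 3.20 FPKM in D-3 and at or below 0.0466 in D-2 (edgeR adjusted p = 0.00573). KRT7, a simple epithelial keratin, was 3.42-fold higher in D-3 (edgeR adjusted p = 0.00538). Among the mesenchymal genes THBS1 (a matrix glycoprotein) was 8.10-fold lower, COL1A2 (a chain of type I collagen) 7.24-fold lower and TAGLN (an actin-binding protein) 4.13-fold lower in D-3. CDH1 stayed at or below 0.158 FPKM throughout, and 32 of the 44 epithelial genes never reached 1 FPKM in any library.

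In DP-3 against DP-3 day 1, of 42 tested mesenchymal genes 7 were called higher and 0 lower (median 0.31, against -0.06 for all genes), where 1.81% of all genes were called higher and 5.76% lower. Among them were POSTN (a matrix protein) at 0.0722 ± 0.0615 FPKM on day 1 and 1.81 ± 0.28 on day 14 (SD, n = 3), ACTA2 (smooth muscle actin), 4.56-fold higher, and TNC (tenascin, a matrix protein), 2.79-fold higher. POSTN, with a day 1 mean below 0.1 FPKM, passed the filter on low values only through day 14, so its call leans that way. ACTA2 was 2.94-fold higher without DP-3 replicate 3, and its call was lost without day 1 replicate 2 or 3 (edgeR adjusted p of 0.0574 and 0.0628). Of 21 tested epithelial genes 0 were called higher and 2 lower. ITGA4, a subunit of a fibronectin receptor, was 2.73, 1.13 and 0.711 FPKM on day 14 and 0.460, 0.449 and 0.404 on day 1. It was 4.12-fold higher on day 14 (edgeR adjusted p = 0.0203) and 2.51-fold without DP-3 replicate 1, and its call was lost without any one day 1 library (edgeR adjusted p from 0.0665 to 0.0760). LTBP1, which binds latent TGF-beta, was 2.24-fold higher (edgeR adjusted p = 0.00217).

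**Figure D5:**
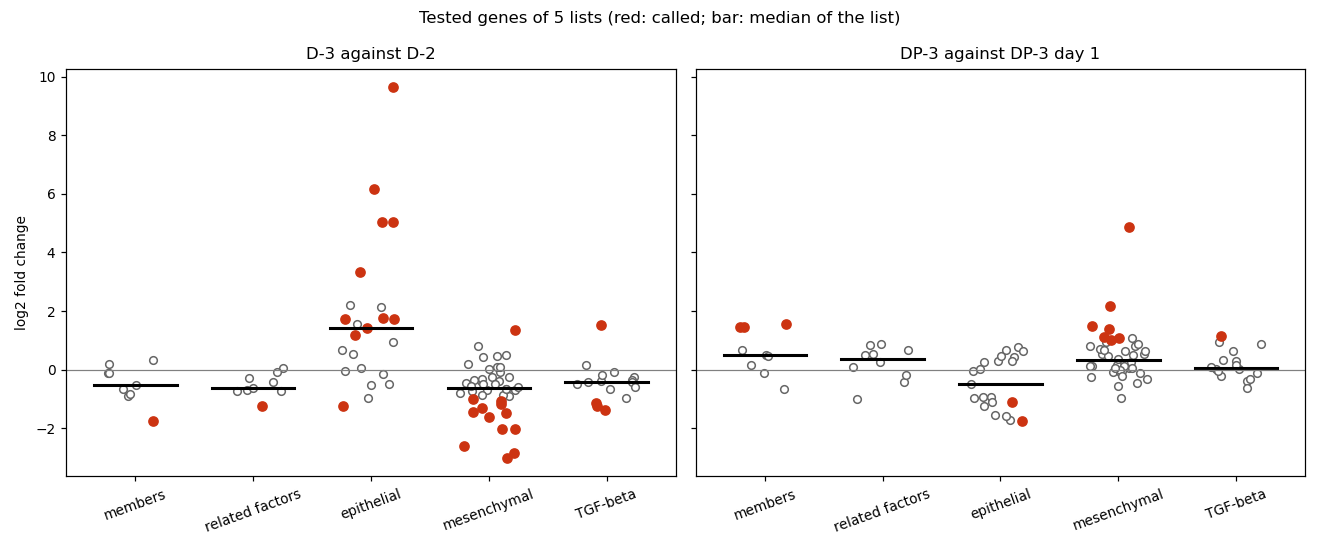
Log2 fold change (vertical axis) of every tested gene of 5 lists in D-3 against D-2 and in DP-3 against DP-3 day 1, with called genes in red and a bar at the median of each list. The epithelial median is 1.41 and the mesenchymal median -0.63 in the first panel, and the mesenchymal median is 0.31 in the second. In the first panel, epithelial genes near 0 in D-2 passed the filter on low values only through D-3.

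Against FIT, mesenchymal genes went both ways. In D-2, 7 of 42 tested were called higher and 5 lower, beside 3.83% and 10.8% of all genes, so the lower calls were near the background. There THBS1 was 4.85-fold higher and BGN (a proteoglycan) 9.56-fold lower. In D-3, 2 were called higher and 10 lower, beside 4.29% and 2.17% of all genes, among the lower ones COL1A1, 7.30-fold lower. In DP-3, 1 was called higher and 3 lower, beside 1.66% and 3.16% of all genes, among the lower ones BGN (7.98-fold, and 13.3-fold without DP-3 replicate 1) and COL1A1 (4.47-fold). Of the 14 related transcription factors, FOXC2 (a forkhead factor linked to EMT) was called lower in D-2 (2.16-fold) and in D-3 (4.93-fold), and was 58.5, 42.4 and 22.9 FPKM in FIT. In the TGF-beta list, TGFBI was called higher in D-2 (7.24-fold), D-3 (4.95-fold) and DP-3 (2.91-fold), and SMAD7, an inhibitory SMAD, in D-2 (2.26-fold) and D-3 (2.20-fold). Among the intermediate filament genes, 4 of 8 tested were called lower in D-2 than in FIT (10.8% of all genes), PLEC (a linker of filaments) by 2.26-fold, and in D-3 against D-2 PRPH was 0.0983 ± 0.0524 FPKM in D-2 and 2.33 ± 0.88 in D-3 (SD, n = 3) while LMNB1 (a nuclear lamin) was 3.03-fold lower. In the fibronectin receptor list ITGA4 was 2.98-fold lower in D-3 than in FIT and TNS1 2.34-fold lower in D-3 than in D-2. Of the 20 tested partners and turnover factors of the repressors, 1 was called in D-3 against FIT (LIMD1, 2.01-fold lower), beside 6.45% of all genes. In D-2, DP-3 and IT against FIT 0 of the 20 were called, beside 14.6%, 4.82% and 0% of all genes. Among these calls against FIT, FOXC2 and SMAD7 in D-2, FOXC2, TGFBI, SMAD7, LIMD1 and ITGA4 in D-3, and BGN and TGFBI in DP-3 were lost in at least 1 fit with a library left out.

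The genes whose level ran most like each member were found by Pearson correlation of log2(FPKM + 0.1) over the 18 libraries, among 12250 genes. The libraries fall into groups and are not independent points, so this is a description. PRRX1 had the closest ones, CDC42EP3 (0.976), ABI3 (0.956) and ISM1 (0.952). For VIM they were TSPYL1 (0.887), ZFP36L2 (0.874) and HDAC7 (0.850), and for FN1 LDOC1 (0.863), GLIS1 (0.851) and DBNDD1 (0.847). SNAI1 ran with ID2 (0.853), PLOD1 (0.821) and KIAA2013 (0.818), and SNAI2 with USP6NL (0.788), AGAP2-AS1 (0.786) and MCU (0.771). TWIST1 ran with NDUFS7 (0.834), CHD4 (0.814) and TMED3 (0.779), and TWIST2 with CCDC85C (0.812), EBP (0.803) and AOPEP (0.798). ZEB1 had the weakest likeness, with TMEM177 (0.709), GPANK1 (0.634) and MRTFB (0.633).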

How the data were processed

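Poly(A) RNA of 18 libraries was sequenced in read pairs from stranded libraries. Per the submitters' processing notes the authors used cutadapt 1.9, HISAT2 2.0.4, StringTie 1.3.4d, DESeq2 and edgeR, and the genome build is not given in the sources used here. Of the genes found in GENCODE 29 (GRCh38), 99.8% overlapped the deposited positions. FPKM were calculated by the authors using StringTie. Estimated counts, deposited beside them, are whole numbers of unstated making, and 35.0% of 212148 low ones are multiples of 4, against 25% if these were no commoner than other counts, and 4 counts per read pair were assumed from this. All columns of values were used.

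Groups came from the sample labels. Counts were fitted per comparison with edgeR 4.0.16 (TMM, quasi-likelihood test, Benjamini-Hochberg) in R 4.3.3, over genes with at least 0.1 FPKM in at least 3 of the 6 libraries. The code was tested on simulated data. Limits and p-values cover counting error and the spread of these libraries only. The 10 members and all lists were chosen with earlier results of these data known. Beside the members, up to 3 called genes per list and comparison were named, those with the largest change and a mean of at least 1 FPKM in a group, and for each member averaging at least 1 FPKM the 3 genes most correlated with it. ESRP1, CLDN1, PRPH and POSTN are given without a fold because one group was near 0. A gene that this rule names is withheld for evaluation and is not reported here. Promoters and motifs came from RefSeq (GRCh38.p14), which held entries for 6 of the 10. Alternatives were DESeq2 1.42.0, limma 3.58.1 on log2(FPKM + 0.1) and log2(FPKM + 1), median-of-ratios scaling, a stricter minimum of 1 FPKM or none, 1 fit of all 18 libraries, a replicate block and each library left out. Figures used matplotlib in Python.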

Additional observations from a re-analysis of the deposited data

How the results depend on the processing

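Calls among the 10 genes kept their number within 1.5 times in all alternatives except these. In D-2 against FIT the number was 1 (FN1) in 1 fit of all 18 libraries, and 1 to 2 when a library was left out, since FN1 was lost without any one of the D-2 libraries. In D-3 against FIT it was 2 (FN1 added) with DESeq2, with no filter and in 1 fit of all 18, and 1 to 2 when a library was left out, with 2 without FIT replicate 3. In DP-3 against FIT it was 1 (SNAI1) with DESeq2. In DP-3 against DP-3 day 1 the number stayed within 1.5 times, at 3 to 4 when a library was left out, with SNAI1 added without DP-3 replicate 3. PRRX1 was called in all alternatives run for D-3 against FIT, DP-3 against DP-3 day 1 and D-3 against D-2. No called gene reversed. The causes were not tested. Fitted with the replicate number as a block, the members called were 2, 1, 0, 0, 3 and 1 in the order of the comparisons with FIT (D-2, D-3, DP-3, IT), DP-3 against day 1 and D-3 against D-2, as without it, while calls over all genes went from 965 to 164 in DP-3 against FIT and from 1571 to 938 in DP-3 against day 1. Calls among all genes also moved over the alternatives. D-2 against FIT had between 899 and 3432 (2846 as reported), D-3 against FIT between 240 and 2498 (1399), DP-3 against FIT between 90 and 1894 (965) and IT against FIT between 0 and 661, the higher by DESeq2 (0). DP-3 against day 1 had between 493 and 2263 (1571), and D-3 against D-2 between 1165 and 4250 (3746). Same-numbered libraries deviated together with r from -0.036 to 0.111, so the numbers were not taken as pairs. EPCAM had at most 50 estimated counts in each library. With a library left out, an alternative added after the data were seen, the list genes given above as losing a call had an edgeR adjusted p up to 0.149, and ZEB1-AS1 in D-2 against FIT also lost its call, with one up to 0.0988.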
